A study of Mus musculus with 12 samples.

Results

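Amino acid transporters of the plasma membrane were followed in mouse splenic B cells that lacked or retained Pdap1, the gene of PDGFA-associated protein 1. The group was 10 genes picked by symbol, Slc1a4, Slc1a5, Slc3a2, Slc6a9, Slc7a1, Slc7a3, Slc7a5, Slc7a6, Slc38a1 and Slc38a2, out of 55536 annotated features in the table of read counts. All 10 were found by Ensembl identifier. RNA-seq was performed on 12 libraries, from 3 control and 3 Pdap1-deficient mice, each mouse giving a culture with LPS-IL-4 and a culture with LPS-BAFF-TGFβ, harvested after 48 h. Both genotypes carried a Cre allele active in B cells, and the Pdap1-deficient mice in addition had both copies of Pdap1 with exon 2 between loxP sites, so that Pdap1 was deleted only where Cre was active. The strain label was C57BL/6, cells were selected by removal of CD43-bearing splenocytes, and the age of each mouse is not given in the sources used here. LPS is a bacterial activator of B cells. IL-4 directs switching to IgG1, and BAFF with TGFβ directs it to IgG2b.

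Amino acids enter and leave a cell through solute carriers that differ in the substrates they accept. Slc7a1 (CAT1) and Slc7a3 (CAT3) carry cationic amino acids such as arginine and lysine. Slc1a4 (ASCT1) and Slc1a5 (ASCT2) exchange small neutral amino acids, with serine and glutamine among their substrates, and Slc6a9 (GlyT1) takes up glycine. Slc3a2 (CD98, or 4F2hc) is a heavy chain that binds light chains and brings them to the surface. Slc7a5 (LAT1), the leucine exchanger, and Slc7a6 (y+LAT2), which exchanges cationic against neutral amino acids, are such light chains. Slc38a1 (SNAT1) and Slc38a2 (SNAT2) carry small neutral amino acids together with sodium, an activity known as system A. Activated lymphocytes raise their amino acid uptake as they grow and divide, and several of these genes are known targets of ATF4, a transcription factor of the integrated stress response.

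The C/EBP-ATF response element, a DNA motif that ATF4 dimers can bind, was searched for in promoter windows, which ran from 250 bases before to 50 bases after an annotated transcript start. The letters searched were TGATGNAA on both strands, in RefSeq windows of build GRCm38.p6. Windows were found for 6 of the 10 genes (10 windows), and not for Slc1a5, Slc7a3, Slc7a5 and Slc38a1. The motif was present in 1 of these 10 windows, that of Slc1a4, compared with 1304 of 32851 windows of the same length genome-wide (3.97%). The Slc1a4 match, TTGCATCA, spanned chr11:20332710-20332717, across the transcript start itself, and read as the motif on the opposite strand of the gene. The other 9 windows, of Slc3a2, Slc6a9, Slc7a1, Slc7a6 and Slc38a2, held no match, which says only that these letters were not in these windows. 1 window each is shown for Slc1a4, Slc3a2, Slc6a9 and Slc7a1, since these genes were up-regulated under both stimulations (the first listed where there were several). Each reads 5′ to 3′ along the gene, and capitals mark the motif.
Slc1a4, chr11:20332664-20332963, minus strand: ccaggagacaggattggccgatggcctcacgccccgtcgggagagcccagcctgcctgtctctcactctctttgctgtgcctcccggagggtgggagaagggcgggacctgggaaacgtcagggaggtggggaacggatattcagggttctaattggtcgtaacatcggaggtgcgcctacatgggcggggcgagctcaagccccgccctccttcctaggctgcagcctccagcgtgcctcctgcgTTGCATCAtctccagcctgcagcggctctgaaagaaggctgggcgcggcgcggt
Slc3a2, chr19:8713848-8714147, minus strand: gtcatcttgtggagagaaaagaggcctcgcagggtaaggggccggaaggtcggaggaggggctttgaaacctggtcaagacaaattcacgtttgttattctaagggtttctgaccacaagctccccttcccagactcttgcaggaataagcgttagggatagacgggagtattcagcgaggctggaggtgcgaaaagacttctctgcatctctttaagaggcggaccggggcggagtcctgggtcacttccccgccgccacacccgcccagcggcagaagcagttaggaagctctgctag
Slc6a9, chr4:117835008-117835307, plus strand: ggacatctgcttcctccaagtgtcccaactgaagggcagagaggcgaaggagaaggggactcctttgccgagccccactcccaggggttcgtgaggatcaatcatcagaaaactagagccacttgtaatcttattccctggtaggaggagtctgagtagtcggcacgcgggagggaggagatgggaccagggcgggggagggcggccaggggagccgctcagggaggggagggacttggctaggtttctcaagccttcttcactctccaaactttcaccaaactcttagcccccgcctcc
Slc7a1, chr5:148399855-148400154, minus strand: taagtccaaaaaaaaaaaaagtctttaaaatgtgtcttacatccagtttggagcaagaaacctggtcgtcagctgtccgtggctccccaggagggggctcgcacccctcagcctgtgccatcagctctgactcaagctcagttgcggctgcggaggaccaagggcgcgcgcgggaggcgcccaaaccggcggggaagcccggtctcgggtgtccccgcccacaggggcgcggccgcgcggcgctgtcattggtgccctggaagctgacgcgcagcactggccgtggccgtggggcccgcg

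The libraries held 9386667 to 15869143 counts with LPS-IL-4 and 4579793 to 8303482 with LPS-BAFF-TGFβ, apart from the LPS-BAFF-TGFβ library of control mouse 1, which held 69500640. Pdap1 itself, the deleted gene, was at 91.4 to 97.8 CPM (counts scaled by library size) in LPS-IL-4 controls and at 23.3 to 29.9 in Pdap1-deficient cultures, a log2 change of -1.82 (SE 0.114, edgeR quasi-likelihood adjusted p = 3.52e-05). With LPS-BAFF-TGFβ the controls were at 199, 80.3 and 100.3 CPM and the Pdap1-deficient cultures at 26.4, 26.0 and 23.0. That log2 change was -2.33 (SE 0.361, edgeR adjusted p = 0.0929), and without control mouse 1 it was -1.85 (edgeR adjusted p = 4.9e-06). The B cell marker list summed to between 2172 and 3460 CPM in all libraries, the T cell and NK cell lists to at most 16.8 and 0.876 CPM and the erythroid list to 8.18 to 23.7 CPM. The 5 plasmablast genes summed to 622 to 674 CPM in LPS-IL-4 controls and to 747 to 892 in Pdap1-deficient cultures, without overlap, and to 449 to 527 and 475 to 527 with LPS-BAFF-TGFβ. Of these genes 1, Prdm1, was up-regulated with LPS-IL-4 (log2 1.82, SE 0.160, edgeR adjusted p = 0.000323). None was down-regulated at an adjusted p under 0.05. Sdc1 went the other way, without overlap. It was at 6.42, 8.99 and 9.90 CPM in LPS-IL-4 controls and at 5.84, 3.95 and 5.29 in Pdap1-deficient cultures. Irf4 was higher without overlap, Xbp1 and Jchain overlapped, and Xbp1 and Irf4 held most of the sums. The part of plasmablasts in the transporter values was not tested. The 6 myeloid markers summed to 301 and 531 CPM in the 2 cultures of Pdap1-deficient mouse 2 and to 32.0 and 75.1 in those of mouse 3, whereas the other 8 libraries had 5.04 to 24.2 CPM. By Xist and Y-linked transcripts the controls were 2 females and 1 male, and the Pdap1-deficient mice 1 female and 2 males.

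In Pdap1-deficient B cells 6 of 9 transporters, Slc6a9 left aside, were up-regulated with LPS-IL-4 and 5 of the 9 with LPS-BAFF-TGFβ, and none was down-regulated at an adjusted p under 0.05. For comparison, 2.79% of the 15074 genes tested with LPS-IL-4 and 0.455% of the 14079 tested with LPS-BAFF-TGFβ were up-regulated. The shares down-regulated were 2.12% and 0.0071%. The 10 genes were chosen with earlier results of these data known, so a share or median above that of all genes is no independent result. Slc6a9 passed the filter on low counts only through its Pdap1-deficient libraries and so had to differ. With it the counts were 7 and 6 of 10. In bulk RNA, fewer cells of a type and less RNA per cell cannot be told apart. The median log2 change of the 9 genes was 0.57 and 0.80, compared with medians of 0.02 and 0.01 over all genes tested. On the common CPM scale all Pdap1-deficient cultures lay above all controls for 8 of the 10 transporters with LPS-IL-4 and for 7 with LPS-BAFF-TGFβ. Slc6a9, which had to differ, was counted in both. The same was so for 15.5% and 9.55% of all genes tested. The genes up-regulated under both stimulations were Slc1a4, Slc3a2, Slc6a9, Slc7a1, Slc7a3 and Slc7a5. Slc38a2 passed the threshold with LPS-IL-4 and not with LPS-BAFF-TGFβ. Slc1a5, Slc7a6 and Slc38a1 passed it under neither. The CPM of each transporter are plotted by library, and the fold changes side by side.

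**Figure D1:**
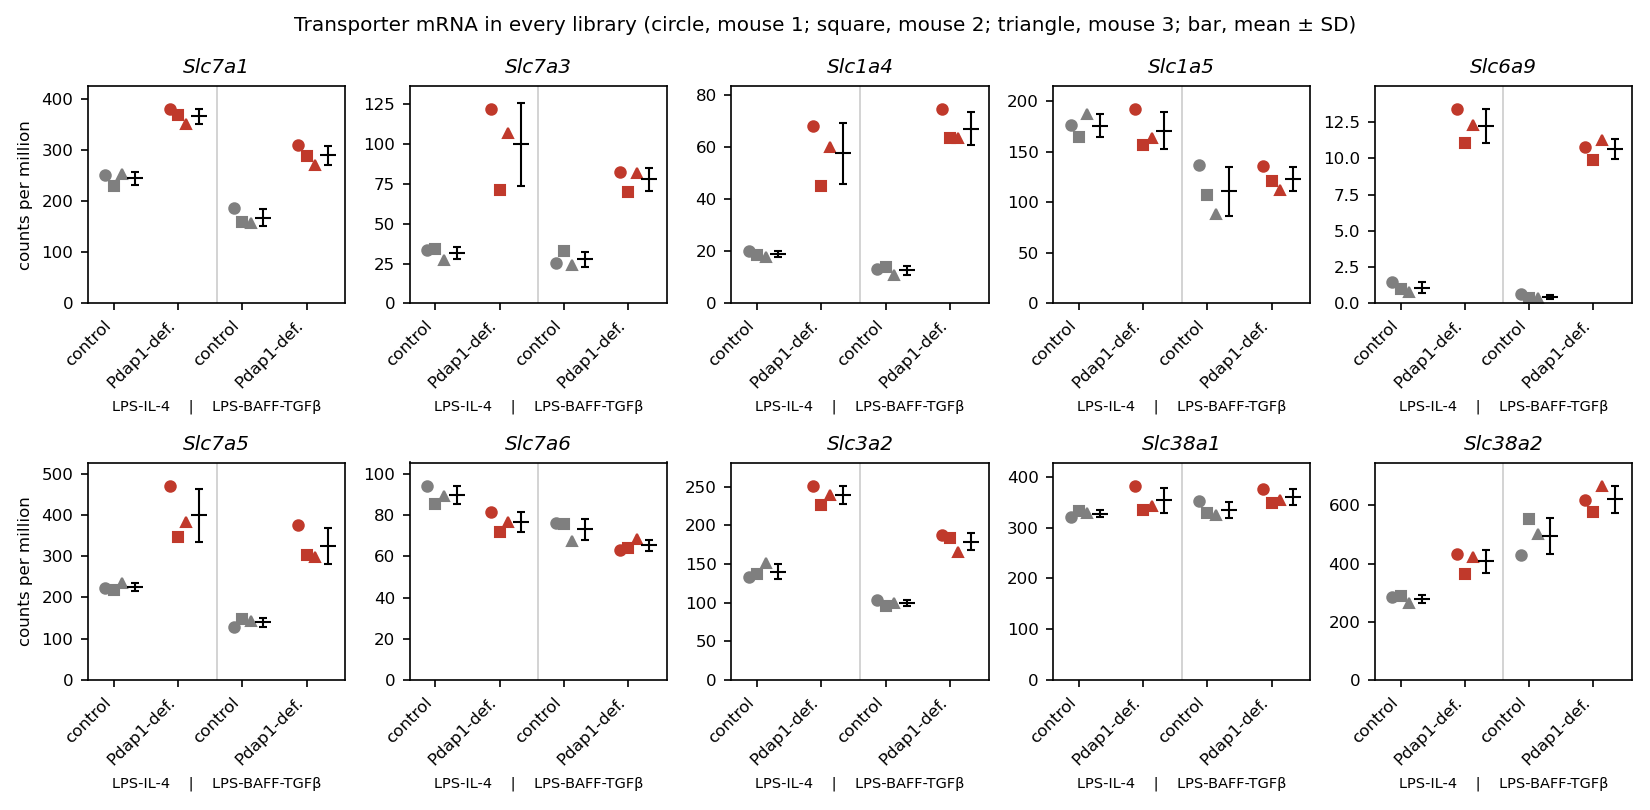
CPM (linear axes from 0) of the 10 transporters in the 12 libraries, with gray symbols for control and red for Pdap1-deficient cultures. Each symbol is 1 mouse of that genotype and black bars are mean ± SD over 3 mice. The Pdap1-deficient symbols of Slc6a9 sit between 9.91 and 13.4 CPM, above controls at 0.365 to 1.48.

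**Figure D2:**
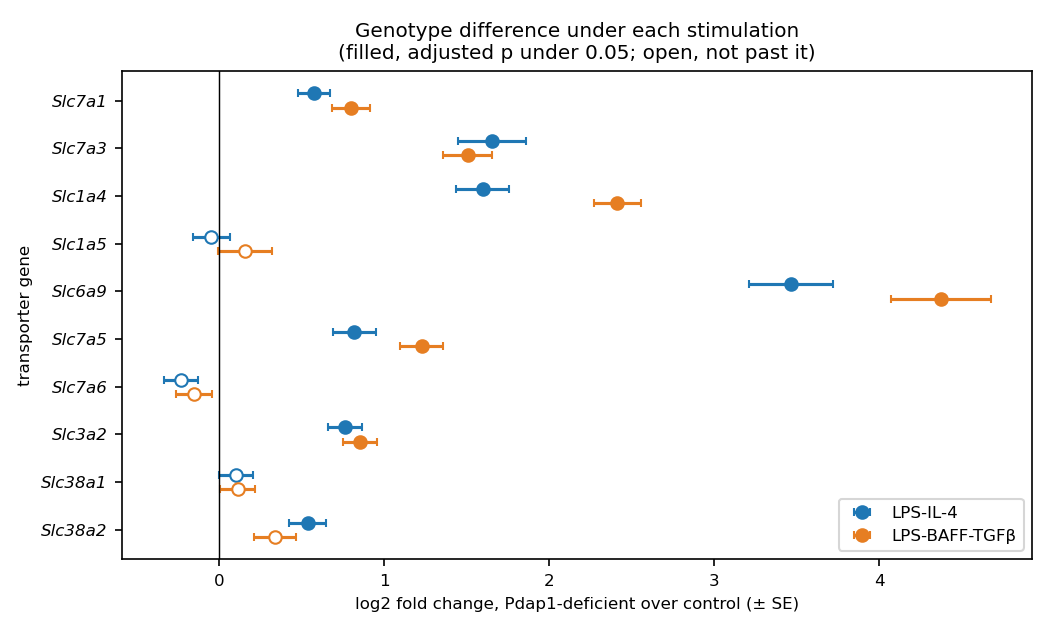
The log2 fold change of Pdap1-deficient over control cultures (x axis) for each transporter (y axis), in blue with LPS-IL-4 and in orange with LPS-BAFF-TGFβ. Bars are standard errors, filled points passed an adjusted p of 0.05 and open points did not, and the changes run from -0.23 for Slc7a6 to 4.37 for Slc6a9.

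The cationic amino acid transporters Slc7a1 and Slc7a3 were both up-regulated. Slc7a1 (ENSMUSG00000041313, chr5:148327410-148399904, minus strand) was at 251, 229 and 253 CPM in control mice 1 to 3 with LPS-IL-4 and at 379, 368 and 350.1 in Pdap1-deficient mice 1 to 3. With LPS-BAFF-TGFβ its controls were at 186, 159 and 156 CPM and its Pdap1-deficient cultures at 309, 288 and 271. The genotypes did not overlap under either stimulation. The increase was 1.49-fold with LPS-IL-4 (log2 0.57, SE 0.0985, edgeR adjusted p = 0.0124) and 1.74-fold with LPS-BAFF-TGFβ (log2 0.80, SE 0.116, edgeR adjusted p = 0.0175). This call was among the less secure. With LPS-IL-4 the edgeR adjusted p was 0.0982, 0.132 and 0.0827 without control mouse 1, 2 or 3 and 0.0539 without Pdap1-deficient mouse 3. With LPS-BAFF-TGFβ it was 0.0871 and 0.174 without control mouse 2 or 3 and 0.151, 0.11 and 0.0936 without Pdap1-deficient mouse 1, 2 or 3, while the log2 change stayed between 0.75 and 0.88.

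Slc7a1 lies 3.19 Mb from Pdap1 on chromosome 5, where sequence flanking the targeted allele can be inherited with it, so flanking sequence and loss of Pdap1 cannot be told apart for this gene. Of the 530 genes annotated within 10 Mb of Pdap1, 196 were tested with LPS-IL-4, where 4 were up-regulated and 2 down-regulated with a median log2 change of -0.01. With LPS-BAFF-TGFβ 183 were tested and Slc7a1 was the only gene of them past the threshold. Over all genes tested 2.79% were up-regulated and 2.12% down-regulated with LPS-IL-4, and 0.455% and 0.0071% with LPS-BAFF-TGFβ. Of the other 5 past it with LPS-IL-4, those with the smallest adjusted p were Nsun5 (log2 -0.69, edgeR adjusted p = 0.0172) and Fry (log2 0.87, edgeR adjusted p = 0.0195).

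Slc7a3 (ENSMUSG00000031297, chrX:101079210-101086020, minus strand) was at 33.4, 34.1 and 27.1 CPM in LPS-IL-4 controls and at 122, 70.9 and 107 in Pdap1-deficient cultures. With LPS-BAFF-TGFβ the values were 25.6, 32.97 and 24.4 CPM in controls and 82.1, 69.6 and 81.6 in Pdap1-deficient cultures. Every Pdap1-deficient culture exceeded every control, and mouse 2 was the lowest of its genotype under both stimulations. The increase was 3.15-fold with LPS-IL-4 (log2 1.65, SE 0.205, edgeR adjusted p = 0.0047) and 2.84-fold with LPS-BAFF-TGFβ (log2 1.504, SE 0.149, edgeR adjusted p = 0.00238). Since Slc7a3 is X-linked and the sexes were not balanced, the fit was repeated with sex as a covariate. The log2 change was then 1.69 (edgeR adjusted p = 0.0153) with LPS-IL-4 and 1.47 (edgeR adjusted p = 0.00878) with LPS-BAFF-TGFβ. With all libraries thinned to the depth of the smallest, the LPS-BAFF-TGFβ change was 1.69 and its edgeR adjusted p 0.322.

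The small neutral exchangers diverged. Slc1a4 (ENSMUSG00000020142, chr11:20302180-20332713, minus strand) was at 20.2, 18.7 and 17.9 CPM in LPS-IL-4 controls and at 67.9, 44.9 and 59.9 in Pdap1-deficient cultures. The LPS-BAFF-TGFβ controls were at 13.2, 13.9 and 10.8 CPM and the Pdap1-deficient cultures at 74.5, 63.4 and 63.4, again with no overlap. The increase was 3.02-fold with LPS-IL-4 (log2 1.596, SE 0.161, edgeR adjusted p = 0.000847) and 5.32-fold with LPS-BAFF-TGFβ (log2 2.41, SE 0.145, edgeR adjusted p = 7.8e-05). It was called without any 1 library, with log2 changes of 1.44 to 1.76 and 2.32 to 2.48. Slc1a5 (ENSMUSG00000001918, chr7:16781340-16798274, plus strand), the glutamine exchanger, ran from 164 to 187 CPM in LPS-IL-4 controls and from 157 to 192 in Pdap1-deficient cultures. With LPS-BAFF-TGFβ it ran from 88.4 to 137 CPM and from 112 to 135. The genotypes overlapped under both stimulations, with log2 differences of -0.05 (SE 0.112, edgeR adjusted p = 0.827) and 0.16 (SE 0.161, edgeR adjusted p = 0.723).

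Slc6a9, the glycine transporter (ENSMUSG00000028542, chr4:117834506-117875198, plus strand), had the largest fold change of the 10 genes and the lowest level. It was at 1.48, 0.989 and 0.789 CPM in LPS-IL-4 controls (18, 11 and 9 counts) and at 13.4, 11.1 and 12.3 in Pdap1-deficient cultures (172, 182 and 116 counts). With LPS-BAFF-TGFβ the controls held 39, 3 and 3 counts and the Pdap1-deficient cultures 67, 48 and 96 counts, or 10.8, 9.91 and 11.3 CPM. The exact Poisson 95% interval of control mouse 2 ran from 0.0753 to 1.07 CPM, for counting error only, and the 39 counts came from the deepest library, at 0.620 CPM. The fitted log2 change was 3.46 (SE 0.254) with LPS-IL-4 and 4.37 (SE 0.301) with LPS-BAFF-TGFβ. Because of the filter, the test is given from the fits with no filter on low counts, where the edgeR adjusted p was 8.37e-27 and 1.08e-17. Those fits called 1694 and 257 genes in all, against 741 and 65 with the filter. Over the alternative fits the largest adjusted p was 0.00323 and 0.0492 (edgeR or DESeq2). Most of those fits used the filter, so they are not taken as further support for this gene. Exons of Slc6a9 share 1429 bases with Ccdc24, 511 with Gm17114 and 46 with B4galt2, all on the opposite strand. The strand setting of the counting is not given in the sources used here, so reads of these overlaps cannot be assigned with certainty. Ccdc24 held 1 count in each LPS-IL-4 control and 10, 7 and 3 in the Pdap1-deficient cultures, far fewer than Slc6a9. B4galt2 held 9, 6 and 5 and then 6, 22 and 11. With LPS-BAFF-TGFβ B4galt2 held 24, 3 and 4 in controls and 6, 4 and 7 in Pdap1-deficient cultures. Gm17114 had no counts. These counts do not show how reads of the shared bases were assigned.

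Of the heavy chain and its light chains, Slc3a2 and Slc7a5 were up-regulated and Slc7a6 was not. Slc3a2 (ENSMUSG00000010095, chr19:8706882-8723369, minus strand) was at 133, 137 and 151 CPM in LPS-IL-4 controls and at 251, 227 and 239.7 in Pdap1-deficient cultures. The LPS-BAFF-TGFβ cultures were at 103, 96.1 and 99.7 CPM in controls and at 187, 183 and 166 in Pdap1-deficient mice. The genotypes were apart in both. The heavy chain rose 1.70-fold with LPS-IL-4 (log2 0.76, SE 0.101, edgeR adjusted p = 0.00363) and 1.80-fold with LPS-BAFF-TGFβ (log2 0.85, SE 0.104, edgeR adjusted p = 0.00805). With LPS-IL-4 the edgeR adjusted p was 0.0533 and 0.0599 without control mouse 1 or 2. With LPS-BAFF-TGFβ it was 0.0966 without control mouse 3 and 0.0822 and 0.0571 without Pdap1-deficient mouse 1 or 2, and 0.0565 after thinning to the smallest library.

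Slc7a5 (ENSMUSG00000040010, chr8:121881150-121907694, minus strand), the leucine exchanger, was at 222, 219 and 235 CPM in LPS-IL-4 controls and at 471, 346 and 382 in Pdap1-deficient cultures. Under LPS-BAFF-TGFβ, controls had 128, 149 and 143 CPM and Pdap1-deficient cultures 376, 302 and 298. Its lowest Pdap1-deficient culture thus exceeded its highest control under both stimulations. The increase was 1.76-fold with LPS-IL-4 (log2 0.82, SE 0.130, edgeR adjusted p = 0.00879) and 2.34-fold with LPS-BAFF-TGFβ (log2 1.23, SE 0.131, edgeR adjusted p = 0.0034). Without LPS-IL-4 control mouse 1, 2 or 3 the first p was 0.0797, 0.0911 and 0.0742 (edgeR, adjusted), whereas the LPS-BAFF-TGFβ call held without any 1 library. Slc7a6 (ENSMUSG00000031904, chr8:106168857-106198706, plus strand) ran from 85.6 to 94.4 CPM in LPS-IL-4 controls and from 71.9 to 81.5 in Pdap1-deficient cultures, which lay below them all. Its log2 differences were -0.23 (SE 0.103, edgeR adjusted p = 0.198) and, with LPS-BAFF-TGFβ, -0.15 (SE 0.110, edgeR adjusted p = 0.605).

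Of the system A carriers, 1 passed the threshold, with LPS-IL-4. Slc38a2 (ENSMUSG00000022462, chr15:96687392-96699730, minus strand) was at 285, 289.8 and 263 CPM in LPS-IL-4 controls and at 435, 364 and 424 in Pdap1-deficient cultures. With LPS-BAFF-TGFβ it was at 429.7, 552 and 501 CPM and at 620.0, 576 and 668. The Pdap1-deficient cultures were above the controls in each case. The LPS-IL-4 increase was 1.45-fold (log2 0.54, SE 0.113, edgeR adjusted p = 0.0284). The LPS-BAFF-TGFβ difference was 0.34 on the log2 scale (SE 0.129, edgeR adjusted p = 0.427). The LPS-IL-4 call was lost without control mouse 1, 2 or 3 (edgeR adjusted p = 0.134, 0.148 and 0.166), without Pdap1-deficient mouse 3 (0.112) and with sex as a covariate (0.0921). Slc38a1 (ENSMUSG00000023169, chr15:96571418-96642913, minus strand) stayed between 320.3 and 383 CPM in all 12 libraries, with genotype differences of 0.10 (SE 0.103, edgeR adjusted p = 0.582) and 0.11 (SE 0.104, edgeR adjusted p = 0.695) on the log2 scale.

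The comparisons were repeated without Pdap1-deficient mouse 2, the mouse with the highest myeloid markers, while mouse 3 stayed in. Without the LPS-IL-4 culture of mouse 2 the log2 changes with LPS-IL-4 were 1.76 for Slc1a4, 0.81 for Slc3a2, 3.55 for Slc6a9, 0.59 for Slc7a1, 1.86 for Slc7a3, 0.93 for Slc7a5 and 0.63 for Slc38a2, all 7 past the threshold. Without its LPS-BAFF-TGFβ culture 4 transporters passed, Slc1a4 (log2 2.43), Slc6a9 (log2 4.40), Slc7a3 (log2 1.55) and Slc7a5 (log2 1.25). Slc3a2 (log2 0.81) and Slc7a1 (log2 0.78) did not, as given above. When the deep library of control mouse 1 was left out as well, all 6 passed, with log2 changes from 0.85 for Slc3a2 to 4.86 for Slc6a9. That last alternative was chosen after the data had been seen. The part of myeloid cells in these values was not tested.

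Ratios between related transporters within a library do not depend on how libraries are scaled, and they show how far members of a pair moved apart. Levels here are CPM divided by the summed exon length in kb. The ratios use the same values as the gene tests above, so they are no separate support. Slc1a4 stood at 0.121, 0.121 and 0.102 of the Slc1a5 level in LPS-IL-4 controls and at 0.376, 0.304 and 0.388 in Pdap1-deficient cultures. With LPS-BAFF-TGFβ the mean ratio was 0.123 ± 0.0188 (SD, n = 3) in controls and 0.580 ± 0.0243 in Pdap1-deficient cultures. The Slc7a5 to Slc7a6 ratio was 3.10 ± 0.179 and 6.38 ± 0.640 with LPS-IL-4, and 2.36 ± 0.276 and 6.15 ± 1.03 with LPS-BAFF-TGFβ, for controls and Pdap1-deficient cultures respectively. The Slc7a3 to Slc7a1 ratio was 0.396 ± 0.0647 and 0.831 ± 0.213 with LPS-IL-4, and 0.508 ± 0.110 and 0.821 ± 0.0904 with LPS-BAFF-TGFβ, in the same order. None of these 3 ratios overlapped between genotypes under either stimulation, and each gave p = 0.1 in a two-sided exact permutation test, the smallest p that 3 against 3 allows. The Slc38a2 to Slc38a1 ratio was 1.66 ± 0.0899 and 2.25 ± 0.151 with LPS-IL-4 (exact permutation p = 0.1), and it overlapped with LPS-BAFF-TGFβ, at 2.89 ± 0.463 and 3.37 ± 0.257 (exact permutation p = 0.3). Slc7a5 and Slc7a6 together, relative to Slc3a2, overlapped between genotypes under both stimulations, at 2.03 ± 0.0980 and 1.83 ± 0.179 with LPS-IL-4 and at 1.91 ± 0.164 and 2.01 ± 0.167 with LPS-BAFF-TGFβ (exact permutation p = 0.3 and 0.5). Slc7a5 alone relative to Slc3a2 overlapped with LPS-IL-4, at 1.53 ± 0.0518 in controls and 1.58 ± 0.176 in Pdap1-deficient cultures (exact permutation p = 0.9). With LPS-BAFF-TGFβ it was 1.34 ± 0.145 and 1.73 ± 0.173, without overlap (exact permutation p = 0.1).

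**Figure D3:**
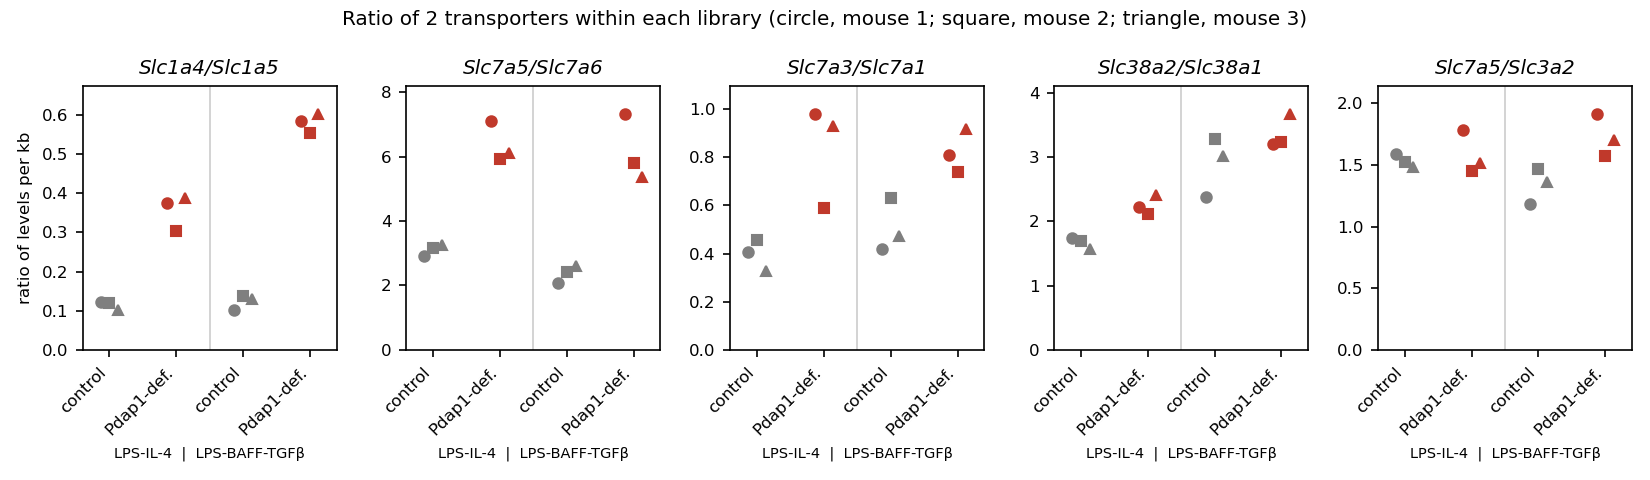
Ratio of the levels per kb of exon of 2 transporters (linear axes from 0) in each of the 12 libraries, gray for control and red for Pdap1-deficient cultures, 1 symbol per mouse. The Slc1a4 to Slc1a5 ratio lies at 0.102 to 0.138 in controls and at 0.304 to 0.602 in Pdap1-deficient cultures.

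By level per kb of exon, Slc7a5 led in LPS-IL-4 controls at 60.8 ± 2.36 CPM per kb (SD, n = 3), followed by Slc1a5 at 42.2 ± 2.73 and Slc3a2 at 39.7 ± 2.61, whose ranges overlapped. Slc38a2 (31.6 ± 1.59) came next. Slc7a1 (21.2 ± 1.17), Slc7a6 (19.6 ± 0.964) and Slc38a1 (19.0 ± 0.384) overlapped each with the next. Slc7a3 (8.33 ± 1.02), Slc1a4 (4.82 ± 0.297) and Slc6a9 (0.211 ± 0.0695) were lowest, each apart from its neighbours. In Pdap1-deficient LPS-IL-4 cultures Slc7a5 was at 108 ± 17.3 and Slc3a2 at 67.8 ± 3.46 CPM per kb, Slc7a3 (26.4 ± 6.89) overlapped Slc7a1 (31.7 ± 1.27), and Slc1a4 (14.7 ± 2.98) overlapped Slc7a6 (16.8 ± 1.05). The length used matters to this order. Slc38a1 has 17236 bases of summed exons and 7266 in its longest transcript, and with coding length in place of exon length Slc38a1 led in LPS-IL-4 controls ahead of Slc38a2 and Slc7a5, while Slc6a9 was lowest and Slc1a4 next to lowest under all 3 lengths.

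Summed over the 10 genes, the level was 247.5, 241.7 and 253.1 CPM per kb in LPS-IL-4 controls and 418, 336 and 371 in Pdap1-deficient cultures. With LPS-BAFF-TGFβ the sums were 209, 217 and 201 and then 362, 323 and 329. No culture of one genotype reached the other. Cationic transporters made up 11.9% ± 0.436 of the sum in LPS-IL-4 controls and 15.5% ± 0.348 in Pdap1-deficient cultures, and Slc7a5 24.6% ± 0.448 and 28.6% ± 1.49. System A made up 20.5% ± 1.13 and 17.8% ± 0.650 and the small neutral exchangers 19.0% ± 0.648 and 14.8% ± 0.283. The mean summed level of system A was nevertheless higher in Pdap1-deficient cultures, at 66.6 against 50.6 CPM per kb. For the small neutral exchangers the means were 55.6 against 47.0, and the genotypes overlapped (controls up to 49.4, Pdap1-deficient cultures from 49.1). With LPS-BAFF-TGFβ system A held 36.1% ± 2.57 of the sum in controls and 27.0% ± 1.997 in Pdap1-deficient cultures, and the small neutral exchangers 14.2% ± 2.82 and 13.8% ± 0.6003. The order of the classes depends on the length used. With the longest transcript, system A held 26.6% and Slc7a5 18.7% in LPS-IL-4 controls. In Pdap1-deficient LPS-IL-4 cultures they held 23.1% and 22.6%. The direction of each genotype difference in the shares above was the same with that length. These shares are descriptions and were not tested.

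**Figure D4:**
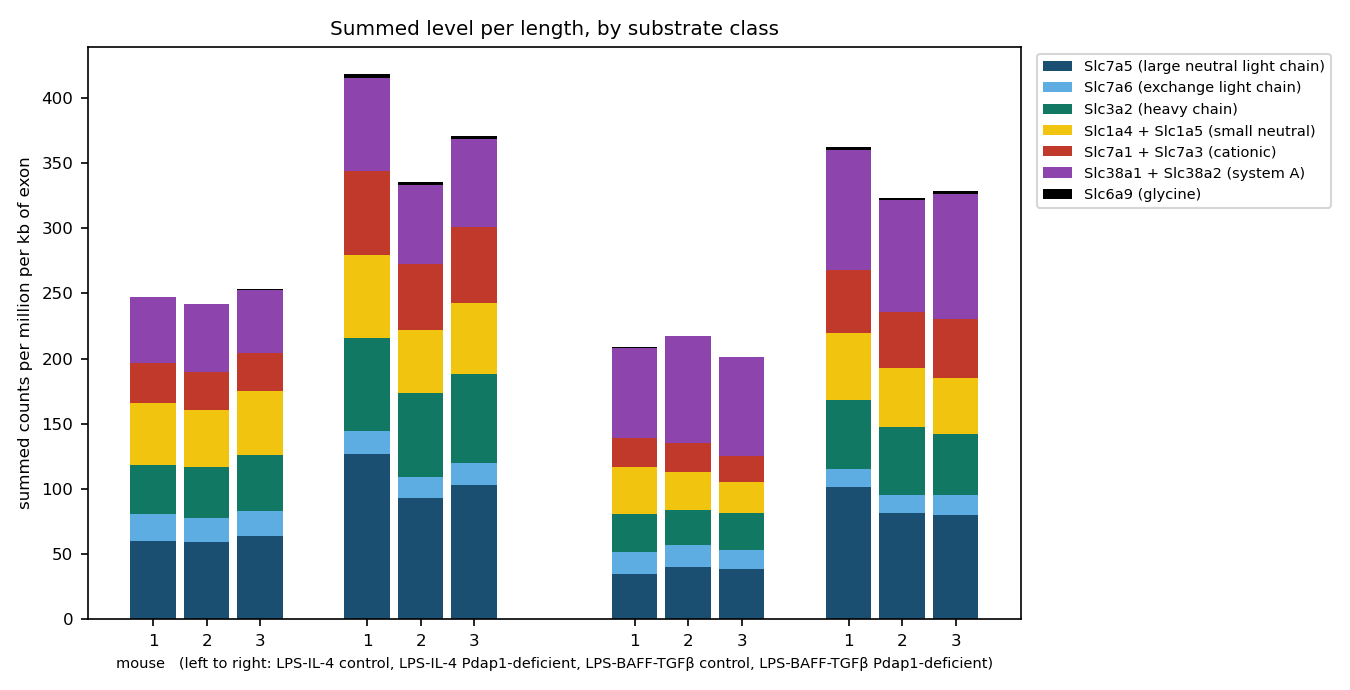
Summed CPM per kb of exon (y axis, from 0) in each of the 12 libraries (x axis), stacked by substrate class. The full bars stand at 201 to 253 in controls and at 323 to 418 in Pdap1-deficient cultures, and the system A segment spans 69.1 to 96.1 with LPS-BAFF-TGFβ and 48.9 to 71.4 with LPS-IL-4.

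Stimulation moved the transporters too. In control mice 5 of the 9 transporters tested were lower in LPS-BAFF-TGFβ cultures than in those with IL-4, and 1, Slc38a2, was higher, where 9.33% of the 14882 genes tested were lower and 9.99% higher. Slc7a5 fell by 0.69 on the log2 scale (SE 0.0927, edgeR adjusted p = 0.00137), Slc3a2 by 0.49 (SE 0.0849, edgeR adjusted p = 0.0048) and Slc7a1 by 0.54 (SE 0.0970, edgeR adjusted p = 0.00563). Slc1a5 fell by 0.66 (edgeR adjusted p = 0.0175) and Slc1a4 by 0.58 (edgeR adjusted p = 0.0245). Slc38a2 rose by 0.83 (SE 0.114, edgeR adjusted p = 0.00155). Slc7a3 (-0.19), Slc7a6 (-0.29) and Slc38a1 (0.04) did not pass, and Slc6a9 did not pass the filter on low counts. Tested without a filter, Slc6a9 had an edgeR adjusted p of 0.205 (log2 -1.11), and in the fit of all 12 libraries it was lower (log2 -1.08, edgeR adjusted p = 0.0245). With mouse as a block, since each mouse gave both cultures, Slc1a4 no longer passed (edgeR adjusted p = 0.0588) and the other 5 calls held, against 6.38% of genes lower and 6.99% higher in that fit. Without 1 library the calls of Slc1a4 and Slc1a5 were lost in some fits. For Slc1a4 the edgeR adjusted p was 0.114, 0.0872 and 0.0623 without LPS-IL-4 control mouse 1, 2 or 3 and 0.0703 without the LPS-BAFF-TGFβ culture of control mouse 3, and for Slc1a5 0.0714, 0.0743 and 0.0519 without LPS-IL-4 control mouse 1 or 3 or the LPS-BAFF-TGFβ culture of control mouse 2. The call of Slc7a6 was gained (edgeR adjusted p = 0.0105) without the deep library of control mouse 1.

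In Pdap1-deficient mice the same comparison called 3 transporters, Slc1a5 (log2 -0.47, edgeR adjusted p = 0.0282), Slc3a2 (log2 -0.42, edgeR adjusted p = 0.0237) and Slc38a2 (log2 0.61, edgeR adjusted p = 0.00636). In all, 5.89% of the 14617 genes tested were lower and 5.57% higher. With mouse as a block 6 transporters passed, as Slc7a1 (log2 -0.34, edgeR adjusted p = 0.000512), Slc7a3 (log2 -0.33, edgeR adjusted p = 0.0163) and Slc7a5 (log2 -0.29, edgeR adjusted p = 0.00209) joined them, and 13.5% of all genes were then lower and 12.8% higher. The count in the fit without the block depended on single libraries, with 5 calls without the LPS-IL-4 culture of mouse 2, 1 without that of mouse 1 or 3 or without the LPS-BAFF-TGFβ culture of mouse 2, and 0 without the LPS-BAFF-TGFβ culture of mouse 1 or 3. Within each of the 6 mice, Slc38a2 was higher with LPS-BAFF-TGFβ, by 0.51 to 0.93 on the log2 scale. Slc1a5, Slc3a2, Slc6a9, Slc7a1, Slc7a3, Slc7a5 and Slc7a6 were lower in all 6 mice. How many of all genes did the same was not counted. For Slc7a3 the change was only -0.05 in control mouse 2 and -0.03 in Pdap1-deficient mouse 2. Slc6a9 had 3 counts each in the LPS-BAFF-TGFβ cultures of control mice 2 and 3. Slc1a4 was lower in the 3 control mice and higher in the 3 Pdap1-deficient mice.

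**Figure D5:**
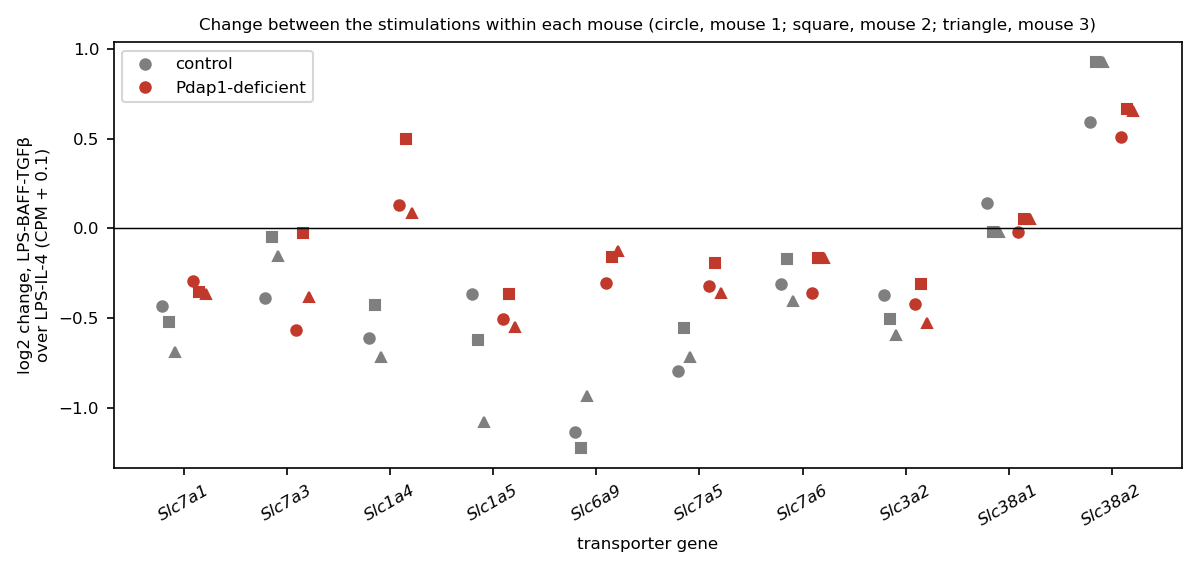
The log2 change from LPS-IL-4 to LPS-BAFF-TGFβ within each mouse (y axis, from CPM + 0.1), for each transporter (x axis), gray for control and red for Pdap1-deficient mice. All 6 symbols of Slc38a2 lie above 0, and those of Slc1a4 lie below 0 in controls and above 0 in Pdap1-deficient mice.

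Whether the genotype difference itself depended on stimulation was tested by the genotype by stimulation term over all 12 libraries. No transporter passed, as no gene did at all (0% of 15794 genes by edgeR), although 755 genes had an unadjusted p under 0.05, and DESeq2 called 6 genes, none of them a transporter. Of the 10, 3 had an unadjusted p under 0.05. The smallest belonged to Slc1a4 (term 0.80, SE 0.215, edgeR adjusted p = 0.98), followed by Slc6a9 (term 0.88, SE 0.374, edgeR adjusted p = 0.983) and Slc7a5 (term 0.39, SE 0.179, edgeR adjusted p = 0.983). For Slc38a2 the term was -0.21 (SE 0.160, edgeR adjusted p = 0.983), so its call with LPS-IL-4 alone was not shown to be a difference between stimulations.

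Other transporters were examined by lists drawn up by where the proteins act. Of 31 further plasma membrane amino acid transporters, 11 were expressed enough to be tested with LPS-IL-4, where 1 was up-regulated and 1 down-regulated (median log2 change 0.22), beside 2.79% and 2.12% of all genes tested. With LPS-BAFF-TGFβ 9 were tested and none passed by edgeR or by DESeq2, while 2 had an unadjusted p under 0.05 (median 0.41). Over all genes tested 0.455% were up-regulated there. Slc7a7 (y+LAT1), another light chain of Slc3a2, was at 4.94, 2.70 and 4.38 CPM in LPS-IL-4 controls and at 8.01, 11.7 and 7.82 in Pdap1-deficient cultures (log2 1.19, SE 0.256, edgeR adjusted p = 0.03). Slc6a6, the taurine transporter, was at 198, 192 and 184 CPM and at 139.6, 158 and 130.2 (log2 -0.43, SE 0.1003, edgeR adjusted p = 0.0383). Each passed in 2 of the 6 fits that left out 1 library.

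Slc7a11 (xCT), the cystine and glutamate exchanger that also pairs with Slc3a2, was at 4.78, 1.98 and 11.1 CPM in LPS-IL-4 controls and at 34.7, 294 and 76.98 in Pdap1-deficient mice 1 to 3. With LPS-BAFF-TGFβ it was at 6.29, 2.43 and 16.0 CPM and at 4.19, 313 and 64.7. Neither difference passed by edgeR (log2 4.48, SE 1.21, adjusted p = 0.128, and log2 3.99, SE 1.74, adjusted p = 0.52). DESeq2 called the first. Slc7a2 (CAT2), a cationic transporter known from macrophages and singled out after its values were seen, was at 107 and 57.4 CPM in mouse 2, at 11.7 and 6.33 in mouse 3 and at 0.161 to 2.28 in the other 8 libraries. Both genes were thus highest in mouse 2 and then in mouse 3, the order of the myeloid marker sums given above. Pdap1-deficient mouse 1 with LPS-IL-4 was above all controls for Slc7a11 (34.7 CPM), with Slc7a2 at 0.233 CPM. The myeloid markers of that culture summed to 6.77 CPM, within the LPS-IL-4 controls (5.04 to 13.6). With LPS-BAFF-TGFβ, Slc7a11 in mouse 1 (4.19 CPM) was within the controls. The part of myeloid cells in these values was not tested. Slc7a8 reached at most 3.34 CPM, Slc3a1 at most 1.65, and Slc7a10 had no counts.

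Transporters of other membranes and other fuels stood beside the same shares of all genes (2.79% up-regulated and 2.12% down-regulated in LPS-IL-4 cultures, 0.455% and 0.0071% in the others). None of the 5 lysosomal amino acid transporters tested passed under either stimulation by edgeR or DESeq2, and 2 had an unadjusted p under 0.05 in each. Of 11 mitochondrial amino acid carriers tested with LPS-IL-4, Slc25a15, the ornithine carrier, was down-regulated (log2 -0.44, SE 0.0991, edgeR adjusted p = 0.0356), a call kept in 2 of the 6 fits that left out 1 library. None of the 10 tested with LPS-BAFF-TGFβ passed by edgeR or DESeq2 (0 with an unadjusted p under 0.05). None of the 7 glucose and monocarboxylate transporters passed by edgeR or DESeq2, with 2 and 0 at an unadjusted p under 0.05. The median log2 changes of these 3 lists were 0.45, -0.04 and -0.03 with LPS-IL-4 and 0.18, 0.02 and 0.14 with LPS-BAFF-TGFβ. Whether the lists differ from the 10 genes was not tested.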

How the data were processed

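RNA-seq covered 2 cultures of splenic B cells from each of 6 mice, 3 per genotype. The labels also name CH12, a B lymphoma line, as cell line, whereas the study's methods describe primary splenocytes. The authors processed reads with the PiGx pipeline. The submitters' processing notes name Trim Galore 0.6.1, STAR 2.6, HTSeq 0.9.1, DESeq2 and GRCm38. The deposited values used here are whole-number read counts per gene. A second, normalized table was not used. Gene positions and lengths were taken from GENCODE M21. The annotation release and strand setting of the authors' counting are not given in the sources used here, and the labels and the study's methods name different library kits.

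Genes with low counts were removed (filterByExpr), libraries were scaled by TMM and tested in edgeR 4.0.16 (R 4.3.3) by the robust quasi-likelihood F test, with Benjamini-Hochberg adjustment over all genes tested and a threshold of 0.05. CPM printed use TMM factors of all 12 libraries. DESeq2 1.42.0, other filters and scaling, thinning, sex, single libraries left out and replicate blocks were alternatives. The 10 genes and all lists were chosen with earlier results of these data known. Genes of other lists were named by smallest adjusted p past the threshold, at most 6 per comparison for plasma membrane transporters and 3 otherwise, with Slc7a7, Slc7a8, Slc7a10, Slc7a11 and Slc3a1 in any case. Same-numbered cultures of a genotype were taken as 1 mouse, since the study used 3 mice per genotype for both stimulations, and sex-linked transcripts matched (r of deviations between the cultures 0.40 to 0.69 in Pdap1-deficient and -0.24 to 0.36 in control mice). On simulated counts with 2-fold changes the fit recovered 77.5% of changed genes with LPS-IL-4, 53.5% with LPS-BAFF-TGFβ and 25% for the genotype by stimulation term. It also called 10, 11 and 5 unchanged genes. The changed genes were drawn only from those above a minimum mean CPM, so these rates do not cover genes below it. The name of the Cre driver is not reported here.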

Additional observations from a re-analysis of the deposited data

Results flagged for a closer look

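Slc1a4 differed in sign between the genotypes in its change with stimulation. From LPS-IL-4 to LPS-BAFF-TGFβ it changed by -0.61, -0.43 and -0.72 on the log2 scale (CPM + 0.1) in control mice 1 to 3 and by 0.13, 0.50 and 0.08 in Pdap1-deficient mice 1 to 3, a difference of 0.82 between the genotype means. In controls the decrease passed (edgeR adjusted p = 0.0245) but not with mouse as a block (0.0588), and in Pdap1-deficient mice the fitted log2 change of 0.23 (SE 0.155) did not pass (edgeR adjusted p = 0.446), with overlapping groups. The genotype by stimulation term tests this difference and did not pass (edgeR adjusted p = 0.98, and 0.377 with mouse as a block). Without both cultures of Pdap1-deficient mouse 2, an alternative chosen after seeing the data, the term was 0.68 (edgeR adjusted p = 1).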

How the results depend on the processing

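Counts of transporters past the threshold, Slc6a9 included, are given here by comparison. With LPS-IL-4 the count of 7 became 3 to 7 when 1 library was left out. With LPS-BAFF-TGFβ the count of 6 became 4 to 6 when 1 library was left out and 3 after thinning to the smallest library. The stimulation comparison gave 4 to 7 calls without 1 library in controls, against 6, and 8 with all 12 libraries in 1 fit. In Pdap1-deficient mice it gave 0 to 5, against 3, with 1 at an adjusted p under 0.01 and 6 with mouse as a replicate block. The genotype by stimulation term gave 0 under every alternative run.

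Directions reversed only for differences that had not passed. With LPS-IL-4 Slc1a5 was at 0.0169 (log2) with sex as a covariate and at -0.159 to 0.0240 without 1 replicate. For the genotype by stimulation term Slc38a1 was at 0.00507 by DESeq2, Slc7a6 at -0.0131 after thinning, and without 1 replicate Slc38a1 ran from -0.0483 to 0.0536 and Slc7a3 from -0.357 to 0.00987. In the Pdap1-deficient stimulation comparison Slc38a1 was at -0.00148 without a filter, -0.0123 after thinning and -0.00834 to 0.0887 without 1 replicate. The cause was not tested.

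The replicate number as a block in the genotype comparisons gave 7 and 5 calls, and Slc7a1 with LPS-BAFF-TGFβ then had an adjusted p of 0.051 (log2 0.80). Same-numbered mice of the 2 genotypes share only a number (r from -0.24 to 0.17). With sex as a covariate that p was 0.0508. Over all genes, LPS-IL-4 calls numbered 741, 130 at an adjusted p under 0.01, 1217 by DESeq2, 1694 unfiltered, 173 with sex and 69 to 1759 without 1 library. LPS-BAFF-TGFβ calls numbered 65, 27 at an adjusted p under 0.01, 172 by DESeq2, 257 unfiltered, 133 with all 12 libraries in 1 fit, 42 with sex, 26 after thinning and 19 to 116 without 1 library. Stimulation calls numbered 2874 in controls (1515 at an adjusted p under 0.01, 1608 to 4858 without 1 library) and 1675 in Pdap1-deficient mice (853 at an adjusted p under 0.01, 3854 with mouse as a block, 908 to 2235 without 1 library). The order of levels per kb kept 7 of 10 ranks in LPS-IL-4 controls with the longest transcript and 3 with coding length.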
